A study of Mus musculus with 12 samples.

Results

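The h4 group consisted of 3 whole brains from mice homozygous for the h4 allele of Rorb (genotype label Rorbh4/h4), and it was compared with 3 whole brains of wild type (WT) mice. These 6 libraries were chosen by their genotype labels out of 12 in the series, whose other 6 came from mice homozygous for the h1 or h2 allele (3 each). All mice were 6 weeks old. The strain label was B6.129S7-Il1r1tm1Imx/J for h4, C57BL/6J for h1 and WT, and B6(Cg)-Tyrc-2J/J for h2. The h4 strain name carries tm1Imx, a targeted allele of the interleukin 1 receptor gene Il1r1, and the labels do not say which alleles of Il1r1 each mouse had. Allele and strain background therefore cannot be told apart in this comparison. With 3 mice per genotype in the series design, the spread between libraries is one between animals.

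RORβ, the protein of Rorb, is an orphan nuclear receptor that binds DNA as a monomer at the short motif AGGTCA preceded by an A/T-rich stretch. In the brain it marks layer 4 neurons of the sensory cortex, and it is also made in thalamus, in spinal cord interneurons, in retina and in clock-related nuclei. Mice without a working RORβ lift their legs high when they walk, the gait for which the high stepper lines of this series are named. Il1r1 encodes the signalling receptor for interleukin 1, found in brain mainly on endothelial cells and on some neurons.

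Library totals were 17667300 to 18388700 expected counts for h4 and 20168800 to 21472400 for WT. Defining brain markers were present in every library, with Snap25 at 1940 CPM in h4 and 1852 CPM in WT, and Cx3cr1 at 41.4 CPM in h4 and 42.5 CPM in WT (CPM scales the expected counts to the library total). Skeletal muscle and bone genes summed to 6.31 to 6.51 CPM in h4 and 7.14 to 7.73 CPM in WT. Haemoglobin and other blood genes summed to 182 to 426.2 CPM in h4 and 258 to 575 CPM in WT, with the highest level in WT replicate 3. Xist, the transcript of the inactive X chromosome, was at 915, 1.36 and 901 CPM in h4 replicates 1, 2 and 3, and averaged 875 CPM in WT. The h4 group thus held 2 Xist-high and 1 Xist-low library, while all 3 WT libraries were Xist-high. The Y-linked genes Ddx3y, Eif2s3y, Kdm5d and Uty averaged 34.4, 18.5, 11.4 and 8.88 CPM in h4. In WT each of them averaged under 0.1 CPM, Ddx3y the highest at 0.0962 CPM. In bulk tissue, fewer cells of a type and less RNA per cell cannot be told apart, which touches every result below.

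Rorb (ENSMUSG00000036192, GRCm38 chromosome 19, 18930605 to 19111196, minus strand) was at 9.11, 8.65 and 8.66 CPM in h4 and at 18.4, 16.3 and 17.1 CPM in WT. The h4 libraries all lay below the WT libraries, and within h4 they differed by less than the WT libraries did. The means were 8.80 ± 0.262 CPM in h4 and 17.3 ± 1.08 CPM in WT (SD, n = 3 each). Rorb fell in h4 by 0.98 on the log2 scale (SE 0.20, edgeR quasi-likelihood test with Benjamini-Hochberg adjustment over 16493 genes, adjusted p = 0.0309). Each fit that left out 1 of the 6 h4 and WT libraries (a leave-out fit) gave a log2 fold change between -1.02 and -0.93, but none of the 6 passed the threshold of 0.05, with adjusted p up to 0.119. With Xist as a covariate the log2 fold change was -0.98 and the adjusted p 0.0691. With DESeq2 the adjusted p was 2.59e-05. The exact 2-sided permutation test of the 6 CPM values gave p = 0.1, the smallest that 3 against 3 libraries allow. Against the mean of the h1 and h2 mutants, where Rorb was at 26.3 and 28.2 CPM, h4 was lower, at -1.64 on the log2 scale (SE 0.18, edgeR adjusted p = 0.00109). On the TPM scale, which corrects for transcript length, Rorb was at 1.91 ± 0.0603 in h4 and 3.71 ± 0.314 in WT (SD, n = 3 each). Its relative Rora, which encodes the ROR receptor most abundant in cerebellum, was at 38.2 ± 3.26 TPM in h4 and 38.4 ± 1.46 TPM in WT, and its log2 fold change was 0.02 (edgeR adjusted p = 0.83). The mean length that RSEM estimated for the Rorb transcripts was 8745 ± 188 bases in h4 and 9045 ± 104 bases in WT, and these overlapped (exact permutation p = 0.2).

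Il1r1 (ENSMUSG00000026072, GRCm38 chromosome 1, 40225080 to 40317257, plus strand) was at 10.9, 16.9 and 12.5 CPM in h4 and at 7.002, 8.24 and 8.38 CPM in WT. The h4 libraries all lay above the WT libraries, and h4 replicate 2 was the highest. The gene rose in h4 by 0.76 on the log2 scale (SE 0.13, edgeR adjusted p = 0.00161) and passed in 6 of 6 leave-out fits, at 0.55 to 0.88. It averaged 8.34 CPM in h1 and 6.21 CPM in h2, against which h4 was higher by 0.88 (SE 0.11, edgeR adjusted p = 5.25e-05). On the log2 TPM scale its adjusted p by limma was 0.0624. These tables sum all transcripts of a gene, so they do not show whether the RNA counted for Il1r1 can be translated.

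**Figure D1:**
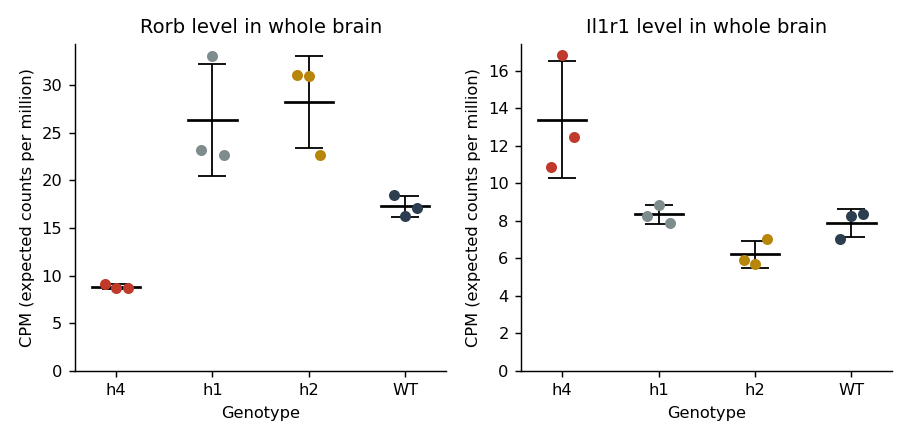
Levels of Rorb (left) and Il1r1 (right) in CPM by genotype. Points are the 3 libraries of each genotype, the wide line is their mean and the bars are 1 SD. The 3 h4 libraries are the lowest of the 12 for Rorb, between 8.65 and 9.11 CPM, and the highest for Il1r1, between 10.9 and 16.9 CPM.

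To show the sequence at the start of the genes the results turn on, RefSeq windows of 300 bases were read from the GRCm38.p6 build, 250 bases before a transcript start and 50 after it. Rorb has 2 annotated starts, and neither window holds AGGTCA on either strand. Windows were found for 11 of the 15 largest rises and 11 of the 15 largest falls described below. Among them AGGTCA was in those of 2 rises, Fabp7 and Abhd12b, both in the extended form TAGGTCA or AAGGTCA, and in those of 0 falls. The motif is in capitals and lies on the minus strand, so it reads TGACCT.
Rorb, upstream start, chr19:19111147-19111446, minus strand: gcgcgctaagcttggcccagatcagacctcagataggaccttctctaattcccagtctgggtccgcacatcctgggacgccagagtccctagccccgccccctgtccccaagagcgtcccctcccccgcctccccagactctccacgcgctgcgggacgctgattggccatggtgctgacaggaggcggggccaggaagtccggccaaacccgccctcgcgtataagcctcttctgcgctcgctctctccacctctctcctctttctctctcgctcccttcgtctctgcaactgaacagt
Rorb, downstream start, chr19:19001068-19001367, minus strand: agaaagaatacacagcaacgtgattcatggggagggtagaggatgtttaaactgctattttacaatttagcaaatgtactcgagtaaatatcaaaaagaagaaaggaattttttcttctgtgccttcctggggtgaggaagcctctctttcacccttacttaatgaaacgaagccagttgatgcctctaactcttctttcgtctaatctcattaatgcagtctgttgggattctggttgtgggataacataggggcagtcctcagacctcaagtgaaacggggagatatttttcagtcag
Fabp7, chr10:57784673-57784972, plus strand: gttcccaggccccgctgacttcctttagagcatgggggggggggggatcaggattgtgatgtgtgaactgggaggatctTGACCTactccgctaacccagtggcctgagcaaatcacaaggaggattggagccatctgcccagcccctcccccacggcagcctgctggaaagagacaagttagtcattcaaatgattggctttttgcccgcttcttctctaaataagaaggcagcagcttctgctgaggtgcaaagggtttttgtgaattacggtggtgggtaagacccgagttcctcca
Abhd12b, chr12:70153881-70154180, plus strand: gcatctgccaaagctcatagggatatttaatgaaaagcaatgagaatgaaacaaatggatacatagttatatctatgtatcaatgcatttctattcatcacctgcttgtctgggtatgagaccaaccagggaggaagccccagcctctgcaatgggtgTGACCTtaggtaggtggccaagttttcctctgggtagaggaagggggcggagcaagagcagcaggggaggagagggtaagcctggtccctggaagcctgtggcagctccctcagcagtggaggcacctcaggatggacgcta
The motif began 171 bases before the start of Fabp7 and 92 bases before that of Abhd12b. By symbol, 209 of the 271 genes higher in h4 and 347 of the 480 lower genes had a window. Over all genes tested, 5.2% of 15587 windows held AAGGTCA or TAGGTCA on either strand. The share was 3.47% of 259 windows of genes called higher in h4 and 3.64% of 494 windows of genes called lower. AGGTCA alone, which the extended forms contain, was in 10.4% of the windows of the higher genes, 8.7% of those of the lower genes and 12.7% of all. A match in these windows is a description of letters and not a measured binding site.

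Of the 16493 genes tested, 751 (4.55%) differed between h4 and WT, 271 (1.64%) higher and 480 (2.91%) lower in h4. Most differences were small, with a median 1.19-fold among the higher genes and 1.15-fold among the lower genes. A change of over 1.5-fold was found for 32 higher and 26 lower genes, and of over 2-fold for 12 higher and 8 lower genes. The h4 and WT libraries did not overlap for 712 of the 751 genes, while they did not overlap for 21.3% of all genes tested. For comparison, h1 differed from WT in 103 genes (0.625%) and h2 in 112 genes (0.679%). The count in h4 moved with single libraries. It was 230 without WT replicate 1, 294 without WT replicate 2, 1111 without WT replicate 3, 320 without h4 replicate 1, 675 without the Xist-low h4 replicate 2 and 422 without h4 replicate 3. Of the 675 genes called without h4 replicate 2, 516 were among the 751.

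The genes lower in h4 were longer and more abundant than those higher in h4. Their median transcript had 5607 bases and 53.1% GC and their median level was 103 CPM, against 3289 bases, 48.3% GC and 39.4 CPM for the higher genes. Over all genes tested, the medians were 3297 bases, 49.7% GC and 19.8 CPM, so in length the higher genes were near the median of all genes. In the quintile of longest transcripts, 8.23% of genes were lower and 1.38% higher in h4. In the quintile of shortest transcripts, 0.43% were lower and 1.63% higher. In the quintile of highest level, from 74 CPM up, 8.88% were lower and 2.52% higher. With offsets for GC content and transcript length, an alternative chosen after seeing the data, 766 genes were called, 270 higher and 496 lower, of which 567 were among the 751. Whether RNA integrity or library preparation had a part in this pattern was not tested.

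**Figure D2:**
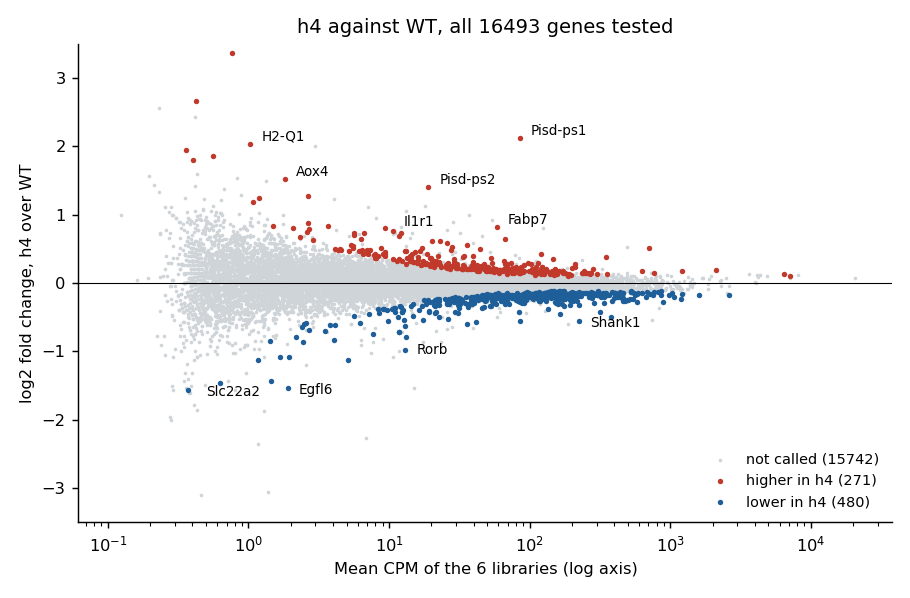
Log2 fold change of h4 over WT against the mean CPM of the 6 libraries (log axis) for each gene tested. Red points are the 271 genes called higher and blue points the 480 called lower in h4, and 16 genes beyond the axis at 3.5 log2 units, none of them called, are not drawn. Blue points gather at high CPM and small fold changes, while large rises include H2-Q1, Pisd-ps1 and Pisd-ps2.

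Predicted genes, pseudogenes and genes with no symbol were left out of the ranking of changes, which leaves out Pisd-ps1 and Pisd-ps2, described further on. Among the other called genes with at least 1 CPM on average and no overlap between the groups, the largest rise was in H2-Q1 (ENSMUSG00000079507, chromosome 17), an MHC class I gene. It was at 1.54, 1.90 and 1.53 CPM in h4 and at 0.420, 0.186 and 0.595 CPM in WT, which is a rise of 2.04 on the log2 scale (SE 0.31, edgeR adjusted p = 1.69e-04). The gene also stood at 1.30 CPM in h1 and 1.58 CPM in h2, and counts of H2-Q genes can be exchanged among near-identical copies. Fam180a, a gene of unsettled function, was at 3.68, 4.68 and 3.00 CPM in h4 and at 1.73, 1.58 and 1.34 CPM in WT, and rose by 1.28 (SE 0.19, adjusted p = 1.11e-04). Its mean was 2.65 CPM in h1 and 3.79 CPM in h2. Slc22a2, which encodes the organic cation transporter OCT2, was at 1.10, 0.653 and 0.566 CPM in h4, 0.845 CPM in h1, 0.704 CPM in h2 and at 1.77, 1.96 and 2.58 CPM in WT, and fell by 1.44 on the log2 scale in h4 (SE 0.27, adjusted p = 0.00216). For these 3 genes the difference of h4 from the mean of h1 and h2 did not pass (edgeR adjusted p = 0.677 for H2-Q1, 0.357 for Fam180a and 0.986 for Slc22a2).

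Other large changes separated h4 from the remaining mutants as well as from WT. Egfl6 (ENSMUSG00000000402, X chromosome), a secreted EGF-repeat protein of the extracellular matrix, was at 1.21, 0.707 and 1.02 CPM in h4 and at 2.85, 2.79 and 2.83 CPM in WT. It fell by 1.53 on the log2 scale against WT (SE 0.24, edgeR adjusted p = 2.1e-04) and by 1.59 against the mean of h1 and h2 (SE 0.21, adjusted p = 2.72e-05). Chrdl1, an astrocyte-secreted BMP antagonist that matures synapses, was at 10.6, 9.35 and 10.6 CPM in h4 and at 16.2, 16.2 and 14.5 CPM in WT. It fell by 0.63 against WT (SE 0.09, adjusted p = 1.06e-04) and by 0.53 against the other mutants (SE 0.08, adjusted p = 1.75e-04). Pdzph1, a gene with PDZ and pleckstrin homology domains, fell by 1.12 against WT (SE 0.27, adjusted p = 0.0134) and was also lower against the mean of h1 and h2, at -1.44 (SE 0.23, adjusted p = 3.33e-04). The fall against WT did not pass without WT replicate 1 or without h4 replicate 1.

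Fabp7, the brain fatty acid binding protein of radial glia and astrocytes, was the most abundant of the 15 largest rises in this ranking. It was at 77.5, 66.5 and 80.8 CPM in h4 and at 40.6, 43.8 and 41.9 CPM in WT, without overlap, which the ranking required of each gene. It rose by 0.82 on the log2 scale (SE 0.12, edgeR adjusted p = 0.00484), and 1.06 against the mean of h1 and h2 (SE 0.10, adjusted p = 4.26e-04). Thbs4, an astrocyte-secreted thrombospondin, was at 8.39, 14.4 and 12.9 CPM in h4 and at 6.86, 7.68 and 5.80 CPM in WT, and rose by 0.80 (SE 0.17, adjusted p = 0.0134). It did not pass without WT replicate 1 or without h4 replicate 3. Ccdc3, a secreted protein of fat and vessel cells, was at 16.0, 15.4 and 14.7 CPM in h4 and at 9.01, 9.45 and 8.88 CPM in WT, and rose by 0.74 (SE 0.11, adjusted p = 1.79e-04). Atf3, a stress-induced transcription factor, Msln, a mesothelial surface protein, Mmp19, a matrix metalloproteinase, and C2, a complement protease, were each under 2 CPM in WT and rose by 1.25, 1.18, 0.84 and 0.79. Of these, Mmp19 passed in 0 of 6 leave-out fits, Atf3 and C2 in 2 and Msln in 3.

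Of the 15 largest rises 7 passed in every leave-out fit, and of the 15 largest falls 3 did, namely Egfl6, Slc22a2 and Chrdl1. In both sets 11 of 15 genes were under 5 CPM in both groups, where few reads stand behind a value. The falls also included Tfcp2l1, a transcription factor of kidney and salivary ducts, at 5.81 CPM in h4 and 9.70 CPM in WT, and Chac1, a glutathione-degrading target of ATF4, at 3.28 CPM in h4 and 4.97 CPM in WT. Aspg, an asparaginase listed among reactive astrocyte genes, was at 1.74 CPM in h4 and 3.15 CPM in WT.

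**Figure D3:**
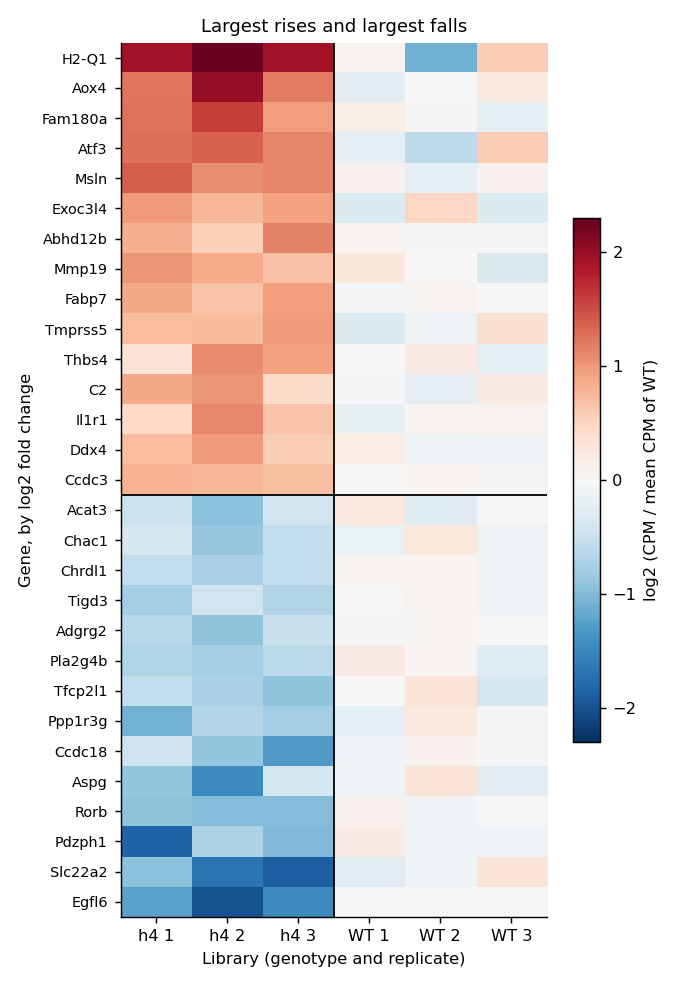
Log2 ratio of each library's CPM to the mean CPM of the WT libraries, for the 15 largest rises (above the line) and 14 of the 15 largest falls (below it), with pseudogenes and predicted genes left out. Columns are the 3 h4 and the 3 WT libraries, red is above and blue below the WT mean. Only genes without overlap between h4 and WT libraries were ranked, so every rise is red in all h4 libraries and every fall is blue. Rorb is at nearly the same shade in all 3 h4 libraries.

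A family of near-identical sequences held the 2 largest rises among called genes above 10 CPM, and was chosen for description after the values were seen. Pisd encodes the mitochondrial phosphatidylserine decarboxylase, and Pisd-ps1 and Pisd-ps2 are transcribed pseudogenes of it. Pisd-ps1 (ENSMUSG00000082286, chromosome 11) was at 108.5, 149 and 159 CPM in h4 and at 29.4, 41.0 and 24.6 CPM in WT, and rose by 2.12 on the log2 scale (SE 0.24, edgeR adjusted p = 0.00239). Pisd-ps2 (ENSMUSG00000023795, chromosome 17) was at 22.9, 29.0 and 31.0 CPM in h4 and at 9.57, 11.7 and 9.82 CPM in WT, and rose by 1.40 (SE 0.10, adjusted p = 3.01e-08). Pisd itself, on chromosome 5, was at 69.2, 85.7 and 89.0 CPM in h4 and at 49.9, 53.3 and 50.9 CPM in WT, and rose by 0.65 (SE 0.09, adjusted p = 0.00133). RSEM can share read pairs among these copies, so the value of any 1 copy is uncertain. Their sum was 248 ± 41.3 CPM in h4, 79.0 ± 9.08 in h1, 82.2 ± 7.01 in h2 and 93.4 ± 11.1 in WT (SD, n = 3 each), a ratio of 2.65 between h4 and WT. Sfi1, a centrosomal protein gene next to Pisd-ps1, was at 42.8 ± 4.55 CPM in h4 and 28.8 ± 2.16 CPM in WT and rose by 0.56 (SE 0.07, adjusted p = 5.84e-05). All 4 genes passed in 6 of 6 leave-out fits. On chromosome 4, the predicted genes Gm21093 and Gm3883 had identical values, at 9.03 CPM in h4 and 14.6 CPM in WT, as reads shared equally between 2 copies would have, and each fell by 0.71 (SE 0.09, adjusted p = 3.63e-05).

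The neighbourhood of Il1r1 was examined since the strain name of h4 carries an allele of that gene. Of 178 genes tested within 20 Mb of its start, 15 (8.43%) were called, 8 higher and 7 lower, against 4.55% of all genes. Within 10 Mb it was 10 of 89 genes (11.2%) and within 5 Mb 6 of 65 (9.23%). The median size of the log2 fold change within 20 Mb was 0.083, against 0.085 over all genes, and with GC and length offsets 10 of the 178 genes (5.62%) were called, against 4.64% of all genes. The count within 20 Mb was 6 without WT replicate 1 (3.28%, against 1.38% of all genes in that fit) and 7 without h4 replicate 1 (3.85%, against 1.92%). It was 8 without WT replicate 2 (4.4%, against 1.77%) and 8 without h4 replicate 3 (4.37%, against 2.53%). Without h4 replicate 2 it was 13 (7.07%, against 4.04%) and without WT replicate 3 it was 16 (8.7%, against 6.65%). Aox4, an aldehyde oxidase 18 Mb away, was at 2.19, 3.75 and 2.15 CPM in h4 and at 0.794, 0.931 and 1.09 CPM in WT. It rose by 1.52 (SE 0.26, edgeR adjusted p = 6.61e-04), and by 1.43 against the mean of h1 and h2 (SE 0.21, adjusted p = 1.28e-04). Pantr1, a noncoding RNA beside Pou3f3, lies 2.47 Mb away and was at 28.3, 36.9 and 31.4 CPM in h4 and at 21.99, 23.3 and 23.2 CPM in WT, a rise of 0.49 (SE 0.07, adjusted p = 2.05e-04). As with Il1r1 and Aox4, h4 replicate 2 was the highest of the 6 libraries. Col3a1, a fibrillar collagen, rose by 0.38 (SE 0.08, adjusted p = 0.00823), and Tgfbrap1, a vesicle tethering protein, fell by 0.22 (SE 0.05, adjusted p = 0.00765).

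Around Rorb, 18 of 355 genes tested within 20 Mb (5.07%) were called, 8 higher and 10 lower, a share near the 4.55% of all genes. Within 10 Mb the count was 7 of 102 genes (6.86%) and within 5 Mb 3 of 33 (9.09%). The count within 20 Mb was 7 without WT replicate 1 (1.95%, against 1.38% of all genes in that fit) and 9 without WT replicate 2 (2.51%, against 1.77%). It was 10 without h4 replicate 1 (2.8%, against 1.92%) and 11 without h4 replicate 3 (3.08%, against 2.53%). Without h4 replicate 2 it was 14 (3.9%, against 4.04%) and without WT replicate 3 it was 20 (5.59%, against 6.65%). Aldh1a1, a retinaldehyde dehydrogenase 1.38 Mb from Rorb, was at 137, 136 and 139 CPM in h4 and at 94.5, 107.5 and 105 CPM in WT. It rose by 0.42 (SE 0.04, edgeR adjusted p = 1.17e-06), and its value can be mixed with that of the near-identical Aldh1a7. It stood at 125 CPM in h1 and 115 CPM in h2, so the difference of h4 from those mutants was smaller, at 0.18 (SE 0.04, adjusted p = 0.00391). Il33, a nuclear cytokine of glia 10.8 Mb away, was at 63.1, 62.0 and 55.9 CPM in h4 and at 44.9, 46.9 and 47.8 CPM in WT, and rose by 0.37 (SE 0.06, adjusted p = 1.91e-04). Dagla, which makes the endocannabinoid 2-arachidonoylglycerol, fell by 0.29 (SE 0.04, adjusted p = 1.38e-04).

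**Figure D4:**
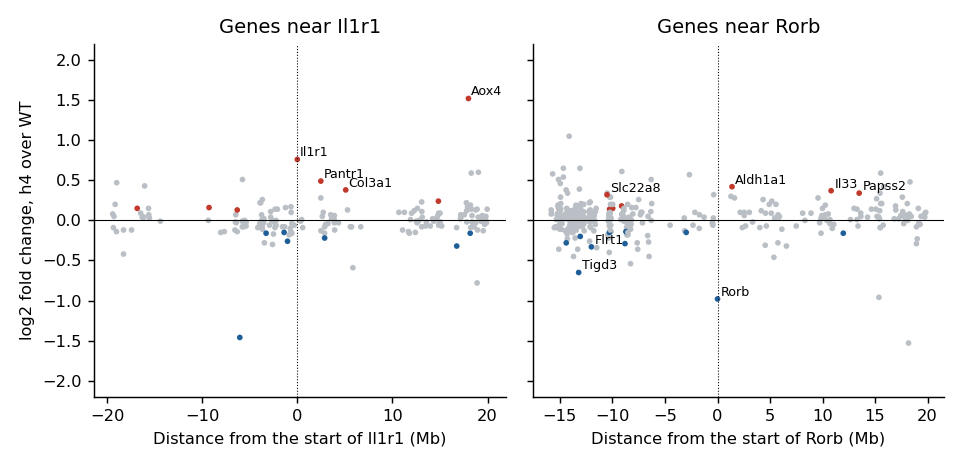
Log2 fold change of h4 over WT against the distance of each gene's start from that of Il1r1 (left) or Rorb (right) in Mb, on the same chromosome. Red and blue points are genes called higher and lower in h4, and grey points were not called. Called genes are scattered over both 20 Mb ranges among uncalled ones, with Aox4 at 1.52 and Il1r1 at 0.76 the largest rises near Il1r1.

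The gene lists below group genes by cell type or function, and each is described by how many tested members rose or fell and by its median log2 fold change, which was 0.009 over all genes tested. The counts of rises and falls stand beside 1.64% of all genes tested that rose and 2.91% that fell. Counts at an unadjusted p under 0.05 cannot be set beside these shares, since many more genes reach that threshold. In the edgeR fit with DESeq2's size factors, 2884 of the 16493 genes tested reached it. List members were chosen with earlier results of these data known, so the counts are no independent evidence of a direction. The layer 4 and upper layer cortex list held 25 genes, of which 0 rose, 5 fell and 20 did not pass, with a median of -0.11. Beside Rorb, the falls included Mdga1, a synaptic adhesion inhibitor (-0.42), Rasgrf2, a Ras exchange factor (-0.14), and Mef2c, an activity-regulated transcription factor (-0.17). Known layer 4 markers other than Rorb did not pass, with Rspo1 at 0.15 (edgeR adjusted p = 0.725), Whrn at -0.08 (0.616) and Scnn1a at 0.27 (0.569). The falls numbered 1 without WT replicate 1 or h4 replicate 1, 2 without WT replicate 2 or h4 replicate 3, 4 without h4 replicate 2 and 5 without WT replicate 3. The deep layer list of 20 genes held 4 falls, in Bcl11b, Tbr1, Sema3e and Foxp1, and 1 rise, in Nr4a2, with a median of -0.12. No fall of that list passed without WT replicate 1, WT replicate 2 or h4 replicate 3, 1 did without h4 replicate 1 and 2 without h4 replicate 2. Of 20 thalamus genes 1 rose, Patj, and 0 fell, while DESeq2 called 2 higher and 1 lower. That list held 0 rises without WT replicate 1, WT replicate 2 or h4 replicate 1, and 2 without WT replicate 3 or h4 replicate 2. Of 20 GABAergic interneuron genes 0 rose and 0 fell (2 higher and 1 lower at an unadjusted p under 0.05 by edgeR, and 0 called by DESeq2).

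Genes of excitatory synapses and neuronal excitability were lower in h4 where they passed. Abundant genes fell more often than others in h4, at 8.88% of the quintile of highest level. Genes with long transcripts did too, at 8.23% of the longest quintile. Whether the level or transcript length of the synaptic and channel genes had a part in their counts was not tested. With GC and length offsets, 3 glutamate receptor, 6 channel and 6 vesicle release genes fell and 0 rose. Of 22 glutamate receptor genes 4 fell and 0 rose (median -0.08). Grin2b, which encodes the GluN2B subunit of NMDA receptors, was at 316, 302 and 330 CPM in h4 and at 475, 457 and 389 CPM in WT, a fall of 0.49 (SE 0.06, edgeR adjusted p = 7.82e-04). Grin1, the obligate NMDA subunit, and the kainate subunits Grik3 and Grik5 also fell. Of 25 voltage-gated channel genes 6 fell and 0 rose (median -0.11), among them Cacna1a, Cacna1b, Cacna1i and Scn8a. Cacna1a, the P/Q-type calcium channel that triggers transmitter release, was at 169, 141 and 161 CPM in h4 and at 197, 207 and 187 CPM in WT, a fall of 0.34 (SE 0.05, adjusted p = 4.32e-04). Of 22 vesicle release genes 4 fell and 0 rose (median -0.09), while DESeq2 called 10 lower and 1 higher. The largest of these was in Bsn, the active zone scaffold, at 269.6, 273 and 274 CPM in h4 and 391, 395 and 307 CPM in WT. WT replicate 3 lay between the h4 libraries and the other WT libraries for Bsn and Grin2b. Without WT replicate 3, 10 vesicle genes and 10 channel genes fell, and 776 of all 16709 genes tested in that fit did. Vesicle genes that fell numbered 2 in each of the other leave-out fits. Leaving out WT replicate 1 left 2 channel genes lower, and leaving out WT replicate 2 or h4 replicate 1 left 3. For glutamate receptors the fit without WT replicate 1 called 2 falls, and that without WT replicate 2 called 1.

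Postsynaptic density genes, a list put together after the values were seen and so no evidence of its own direction, held 12 falls and 0 rises among 22 genes, with a median of -0.17. Shank1, a master scaffold of the density, was at 179, 176 and 194 CPM in h4 and at 278, 299 and 221 CPM in WT. Its log2 fold change was -0.55 (SE 0.11, edgeR adjusted p = 0.0263), and it passed in 1 of 6 leave-out fits, that without WT replicate 3. With GC and length offsets its adjusted p was 0.00442. Dlg4, which encodes PSD-95, was at 413, 432 and 432 CPM in h4 and at 489, 494 and 466 CPM in WT, and fell by 0.19 (SE 0.04, adjusted p = 0.00197). Dlgap3 (-0.31), a scaffold linking PSD-95 to the Shank proteins, Cacng2 (-0.25), the AMPA receptor partner stargazin, and Camk2a (-0.17), the abundant kinase of the density, fell as well. The members that did not pass included Shank2 (-0.31, adjusted p = 0.0735), Camk2b (-0.06, 0.356) and Homer1 (-0.09, 0.708). The count of falls was 5 without WT replicate 1 or without h4 replicate 1, 7 without WT replicate 2, and 14 without WT replicate 3. General neuronal markers did not pass, with Snap25 at 0.06 (adjusted p = 0.294), Syt1 at -0.10 (0.101), Slc17a7 at -0.09 (0.125) and Gad1 at 0.09 (0.215). A second list written after the values were seen, of plexins, slits and robos, receptors and ligands of axon guidance, held 7 falls and 0 rises among 15 genes, but 3 falls with GC and length offsets and 1 to 8 in leave-out fits, fewest without WT replicate 1 or WT replicate 2.

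Some of the most abundant genes of the brain changed by small amounts. Kif5a, a kinesin of axonal transport, was at 2440, 2537 and 2390.3 CPM in h4 and at 2687, 2845 and 2769 CPM in WT, and fell by 0.18 (SE 0.03, edgeR adjusted p = 6e-04). The microtubule proteins Map1a and Map1b fell by 0.24 (SE 0.04, adjusted p = 0.00147) and 0.16 (SE 0.04, adjusted p = 0.0131). Snhg11, a neuronal noncoding RNA, was at 2269, 2278 and 2193 CPM in h4 and at 1927, 1976 and 1983 CPM in WT, and rose by 0.19 (SE 0.03, adjusted p = 4.63e-04). Fth1, the heavy chain of the iron store ferritin, rose by 0.18 (SE 0.04, adjusted p = 0.00414). In an iron list made after the values were seen, 4 of 14 genes rose (Fth1, Cp, Cybrd1 and Steap3) and 1 fell (Heph, the ferroxidase hephaestin). Among 13 mitochondrially encoded genes all had log2 fold changes above 0 (median 0.10), and 2 rose, mt-Atp6 and mt-Cytb. Their sum was 72402 to 76456 CPM in h4 and 67780 to 72005 CPM in WT. With GC and length offsets 0 of them passed, and leave-out fits called 1 to 3. Of 20 nuclear genes of oxidative phosphorylation 0 rose and 0 fell (4 higher and 0 lower at an unadjusted p under 0.05 by edgeR, and 0 called by DESeq2).

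Astrocyte genes rose in part. Of 17, 6 rose and 0 fell (median 0.08), and their summed level was 7387 to 7459 CPM in h4 and 7154 to 7393 CPM in WT, which overlapped. Gfap, the intermediate filament of astrocytes, was at 430.3, 375 and 388 CPM in h4 and at 289.5, 315 and 307 CPM in WT, and rose by 0.38 (SE 0.06, edgeR adjusted p = 0.00172). S100b, a calcium-binding protein, was at 232, 229.8 and 237 CPM in h4 and at 186, 186 and 201 CPM in WT, and rose by 0.28 (SE 0.04, adjusted p = 8e-05). Aldh1l1, Slc1a3, Gja1 and Slc4a4 were the others that rose. Slc1a2, the main glutamate transporter, had a log2 fold change of -0.14 (adjusted p = 0.182) and Aqp4, the water channel, 0.21 (0.323). Leave-out fits called 4 or 5 of the list higher and 0 or 1 lower. DESeq2 called 6 higher and 2 lower, and limma on log2 TPM called 2 higher and 0 lower. With GC and length offsets 5 rose and 1 fell. Serpina3n, an acute phase protease inhibitor of reactive astrocytes taken from a list made after seeing the values, was at 25.2, 25.9 and 21.96 CPM in h4 and at 16.1, 16.8 and 14.8 CPM in WT, and rose by 0.61 (SE 0.08, adjusted p = 6.2e-05). In that list of reactive astrocyte genes 3 of 11 rose and 1 fell. Among 15 radial glia and progenitor genes, also listed after the fact, 5 rose and 0 fell, and these included Tnc, an extracellular matrix glycoprotein (0.51), and Eomes, a factor of intermediate progenitors and unipolar brush cells (0.73), beside Fabp7. Leave-out fits called 2 to 5 of them. Of the leave-out fits, Tnc passed in those without WT replicate 3 and without h4 replicate 2, and Eomes in that without WT replicate 2.

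Of 19 oligodendrocyte and myelin genes, 3 rose (Opalin, Apod and Padi2) and 0 fell, and all 19 had log2 fold changes above 0 (median 0.12). Mbp, the myelin basic protein gene, did not pass, at 0.12 (edgeR adjusted p = 0.0937). The summed level of the list was 12995, 12959 and 13933 CPM in h4 and 11482, 12182 and 13076 CPM in WT, so that WT replicate 3 lay within the h4 range. Without WT replicate 3, 10 of the 19 rose, and without WT replicate 1 or h4 replicate 3 only 1 did. Lists of 19 microglia and complement genes, 18 endothelial genes and 13 oligodendrocyte precursor genes held 0 rises and 0 falls. DESeq2 called 2 precursor genes lower and none of the others. At an unadjusted p under 0.05 by edgeR, 3 microglial genes were higher and 1 lower, 1 endothelial gene was higher and 1 lower, and 2 precursor genes were higher and 2 lower.

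Genes of the brain coverings changed in both directions. Of 18 meningeal fibroblast genes 4 rose and 2 fell. Aebp1, a collagen-binding matrix protein, was at 30.0, 26.8 and 27.9 CPM in h4 and at 18.2, 18.9 and 17.7 CPM in WT, and rose by 0.62 (SE 0.07, edgeR adjusted p = 1.55e-06). Slc6a20a, an imino acid transporter, rose by 0.53 (SE 0.06, adjusted p = 1.29e-05), Ogn, a leucine-rich proteoglycan, by 0.45 (SE 0.09, adjusted p = 0.00406) and Col3a1 by 0.38. Itih2, a hyaluronan-binding protein, fell by 0.50 (SE 0.11, adjusted p = 0.007), as did Slc22a2. The collagens Col1a1 (0.05, adjusted p = 0.862) and Col1a2 (0.09, 0.428) did not pass. The summed level of the list was 509 to 547 CPM in h4 and 475 to 518 CPM in WT. Slc6a20a and Aebp1 were also at 30.7 and 22.6 CPM in h1 and at 33.6 and 26.8 CPM in h2. How much tissue of the coverings each dissection held was not tested.

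Among 20 cholesterol synthesis and uptake genes, 5 rose and 1 fell (median 0.11). Insig1, the sterol-regulated membrane anchor of SCAP, was at 108, 103 and 111 CPM in h4 and at 81.5, 82.1 and 96.8 CPM in WT, and rose by 0.30 (SE 0.05, edgeR adjusted p = 0.00107). Msmo1, a sterol demethylase (0.23, adjusted p = 0.00823), Fdft1, squalene synthase (0.16, 0.0346), and Acss2, acetyl-CoA synthetase (0.13, 0.0499), also rose. The rises numbered 1 without WT replicate 1 or WT replicate 2, 2 without h4 replicate 1 or h4 replicate 3, and 7 without WT replicate 3.

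Protein folding stress genes were lower where they passed, with 5 falls and 0 rises among 24 (median -0.16). Atf4, the transcription factor of the integrated stress response, was at 79.6, 81.7 and 84.3 CPM in h4 and at 95.9, 97.8 and 103 CPM in WT, and fell by 0.28 (SE 0.04, edgeR adjusted p = 3.14e-04). Its target Chac1 (-0.61) and the endoplasmic reticulum chaperones Calr (-0.17), Hsp90b1 (-0.14) and Hyou1 (-0.17) fell too. Hspa5, the chaperone BiP, was at -0.21 (adjusted p = 0.217) and Ddit3, which encodes CHOP, at 0.06 (0.72). The falls numbered 2 without WT replicate 1, WT replicate 2 or h4 replicate 1, 3 without h4 replicate 3, 9 without h4 replicate 2 and 12 without WT replicate 3.

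Immediate early genes, which neurons switch on within minutes of activity, had the largest median of these lists at 0.48, yet 3 of 23 rose and 0 fell. The rises were in Jun (0.25, edgeR adjusted p = 0.00916), Nr4a2 (0.40, 0.0078) and Gadd45b (0.48, 0.0264). Nr4a2, an orphan nuclear receptor, was at 36.0, 40.1 and 41.6 CPM in h4 and at 29.8, 29.3 and 29.6 CPM in WT. Fos was at 42.4, 41.7 and 63.6 CPM in h4 and at 21.2, 22.6 and 30.3 CPM in WT, and Arc at 136, 161 and 177 CPM in h4 and at 76.7, 104 and 88.3 CPM in WT. Neither passed, with adjusted p of 0.241 for Fos and 0.142 for Arc, although their libraries did not overlap. The sum of the list was 1049 to 1245 CPM in h4 and 873 to 931 CPM in WT. DESeq2 called 8 of the 23 higher and limma on log2 TPM called 1, as did the fits without WT replicate 1 or WT replicate 2.

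The interleukin 1 list held 18 tested genes, of which Il1r1 and Il33 rose, Irak2 fell and 15 did not pass (median 0.05). Il1rap, the co-receptor of Il1r1, was at 67.6, 68.7 and 68.0 CPM in h4 and at 64.0, 62.0 and 64.8 CPM in WT, which left a difference of 0.09 on the log2 scale (SE 0.05, edgeR adjusted p = 0.331). Irak2, a kinase of the receptor complex, was at 12.7 CPM in h4 and 16.1 CPM in WT and fell by 0.34 (SE 0.09, adjusted p = 0.0224), though not without WT replicate 1, WT replicate 2, h4 replicate 1 or h4 replicate 3. Nfkbia, an early target of NF-κB signalling, was at 0.11 (adjusted p = 0.865). Of 21 interferon-stimulated genes and 15 MHC class I and antigen processing genes, a list that does not hold H2-Q1, 0 rose and 0 fell, and DESeq2 also called 0. At an unadjusted p under 0.05 by edgeR, 1 interferon-stimulated gene was higher and 1 lower, and 2 MHC and processing genes were higher.

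The remaining lists held few calls. Of 19 striatal projection neuron genes 2 fell, Adcy5, the striatal adenylyl cyclase, and Foxp1. The list held 6 falls without h4 replicate 2 and 3 without WT replicate 3, but 0 in each of the other 4 leave-out fits. Its sum was 1174, 1412 and 1234 CPM in h4 replicates 1, 2 and 3, and 1329 to 1373 CPM in WT. Of 20 cerebellar genes Eomes rose and Itpr1, the IP3 receptor abundant in Purkinje cells, fell, at 1007, 931 and 1051 CPM in h4 and at 1158, 1176 and 1098 CPM in WT. The sum of the cerebellar list was 3285, 2845 and 3410 CPM in h4 replicates 1, 2 and 3, and 3219 to 3305 CPM in WT. That list held 4 rises without h4 replicate 2, and 0 without h4 replicate 1, h4 replicate 3 or WT replicate 1. Of 15 monoamine and cholinergic neuron genes Nr4a2 and Ache, acetylcholinesterase, rose, and without WT replicate 2 the list held 0 rises. Of 16 GABA-A receptor subunits 1 rose, Gabrg1, and of 18 spinal and hindbrain interneuron genes 1 fell, Rorb itself. Of 17 circadian genes Npas2 and Hlf fell, and the list held 2 falls without WT replicate 3 or h4 replicate 2 and 0 in each of the other 4 leave-out fits. Of 18 retinoid genes Aldh1a1 rose, and of 18 choroid plexus genes Kl, which encodes klotho, rose. The GABA-A receptor list held 0 rises without WT replicate 1, WT replicate 2 or h4 replicate 1, and the choroid plexus list held a rise only without WT replicate 1 or h4 replicate 2. Among 14 pericyte and smooth muscle genes Vtn, vitronectin, and Myh11, smooth muscle myosin, rose, and neither passed without WT replicate 1, WT replicate 2 or any 1 of the h4 libraries. Lists of 14 hypothalamic neuropeptides, 12 ependymal genes and 14 glucocorticoid-responsive genes held 0 calls by edgeR and by DESeq2. At an unadjusted p under 0.05 by edgeR, 2 neuropeptide genes were higher and 2 lower, 3 ependymal genes were higher and 1 lower, and 0 glucocorticoid-responsive genes differed.

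**Figure D5:**
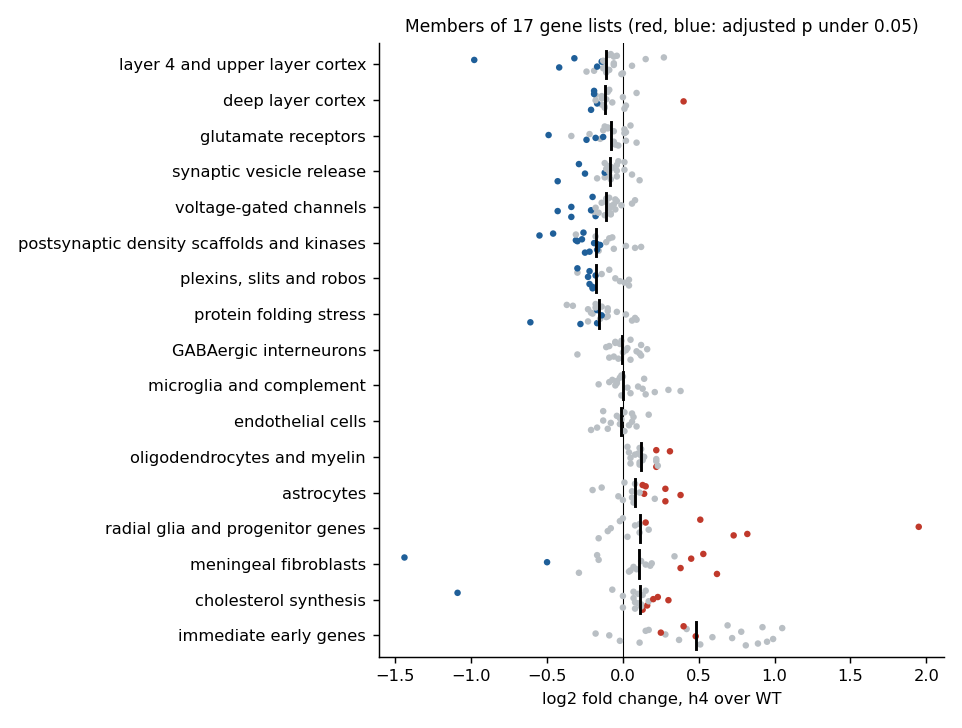
Log2 fold change of h4 over WT for the tested members of 17 gene lists. Each point is 1 gene, red where it rose and blue where it fell at an adjusted p under 0.05, grey where it did not pass, and the black bar is the list's median. Medians of the neuronal and synaptic lists lie left of 0, down to -0.18, those of the glial lists lie at 0.00 to 0.12, and that of the immediate early genes lies at 0.48.

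Set against the mean of h1 and h2, h4 differed in 977 genes (5.92%), 457 higher (2.77%) and 520 lower (3.15%). Without h4 replicate 1 the count was 370, and without h4 replicate 3 it was 489. Against h1 alone 765 genes (4.64%) differed, 348 higher (2.11%) and 417 lower (2.53%), and against h2 alone 531 (3.22%), 254 higher (1.54%) and 277 lower (1.68%). Each comparison uses the same h4 libraries as that with WT, so they are not independent. Grin2b averaged 401 CPM in h1 and 425 CPM in h2, above all 3 h4 libraries. Shank1, at 211 CPM in h1 and 227 CPM in h2, lay between the h4 and WT means, and its difference from those mutants did not pass (log2 fold change -0.27, SE 0.09, edgeR adjusted p = 0.148). Gfap, at 347 CPM in h1 and 331 CPM in h2, was higher in h4 by 0.22 (SE 0.05, adjusted p = 0.0194). Against the other mutants 6 of the 17 astrocyte genes were higher and 2 lower in h4, and 0 of the 19 oligodendrocyte genes were higher and 5 lower.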

How the data were processed

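Polyadenylated RNA of 12 whole brains was sequenced as 100 bp paired ends from unstranded TruSeq v2 libraries, per the labels' protocols. The authors deposited 1 RSEM gene table per library, made with RSEM 1.2.12 and Bowtie2 2.2.0 according to the submitters' processing notes. Which build and annotation they used is not given in the sources used here. Expected counts, as the authors deposited them, are estimated read pairs per gene, in which a pair matching several genes is shared among them, and 77.7% of those above 0 were exactly whole. The authors' deposited TPM are scaled to transcript length and library total. The deposited estimated lengths, in bases, were used for Rorb, and the deposited FPKM were not used. Of 38924 gene identifiers, 37607 matched GENCODE M21, which gave symbols and GRCm38 positions.

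Expected counts were rounded and tested with edgeR 4.0.16 in R 4.3.3 (quasi-likelihood, robust, TMM), with 1 mean per genotype over all 12 libraries. The low-count filter left 16493 genes and removed 22431. The common biological coefficient of variation was 0.0531. Pairs of libraries within h4 and within WT differed beyond counting noise (chi-square over degrees of freedom 2.34 to 4.37). Calls use an adjusted p under 0.05. Each SE is the size of the edgeR log2 fold change divided by the square root of its quasi-likelihood F. It is derived from the test, and equal ratios to it can have different p in different genes. CPM are rounded counts scaled to the library total. Alternatives used DESeq2 1.42.0 and limma 3.58.1 (log2 of TPM plus 0.5), and the steps were tested on simulated counts. Named genes were Rorb, Il1r1, the 15 largest rises and falls without group overlap at 1 CPM or more (predicted genes, pseudogenes and genes with no symbol left out), up to 4 called members per list, up to 8 called genes within 20 Mb of each locus, and the 10 most abundant called genes. Other genes named with values are members of those lists or were chosen after their values were seen. The members and all 39 lists (689 entries, 612 distinct genes tested) were chosen with earlier results of these data known, and 5 further lists after the values here were seen. Antisense partners cannot be separated in unstranded libraries. Groups of 3 are too small for a test of single outlying libraries. Values of some genes that the rule took are not reported here.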

Additional observations from a re-analysis of the deposited data

How the results depend on the processing

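Counts of calls changed with the processing. Among 144 named genes called in h4 against WT, none changed sign under the 20 alternative fits. These genes were chosen by their calls in the same libraries, so the kept signs are no evidence of stable direction. The alternatives kept 143 calls with DESeq2's size factors, 118 with DESeq2, 131 with Xist as a covariate, 131 with GC and length offsets (added after seeing the data) and 54 with limma on log2 TPM. Leave-out fits kept 70 without WT replicate 1, 85 without WT replicate 2, 140 without WT replicate 3, 81 without h4 replicate 1, 118 without h4 replicate 2 and 99 without h4 replicate 3. For Rorb the log2 fold change was -0.98 with the Xist covariate, at an adjusted p of 0.0691, and -1.02 to -0.93 over the fits that each left out 1 of the 12 libraries. Those fits called 230 to 1111 genes in h4 against WT, 370 to 1077 against the mean of h1 and h2, 6 to 17 within 20 Mb of Il1r1 and 7 to 20 within 20 Mb of Rorb. limma on log2 TPM called 152 genes in h4 against WT, 243 against the mean of h1 and h2, 1 near Il1r1 and 8 near Rorb. A 5 Mb window held 6 calls among 65 genes at Il1r1 (9.23%) and 3 among 33 at Rorb (9.09%). A 10 Mb window held 10 among 89 at Il1r1 (11.2%) and 7 among 102 at Rorb (6.86%). The called gene Il1r1 or Rorb itself is counted in each window. The cause of the changes in counts was not tested. DESeq2 gave 203 higher and 529 lower genes, a split of 27.7% higher. No paired analysis was possible because the titles of h4 and WT libraries share no replicate numbers. A count under 1 CPM rests on about 20 read pairs or fewer, which limits calls of low genes.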
